A study of Mus musculus with 48 samples.

Results

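The genes described here are 51 genes of G2 phase and mitosis, taken by symbol from a count table of 24062 mouse genes. The rule that names them uses no measured value, but the list was chosen with earlier results of these data known. They were followed across single cells of mouse fetal liver of embryonic day 14.5. The cells were labelled BFU-E, the erythroid burst-forming unit, an early progenitor committed to the red cell lineage. They had been sorted as cells without lineage markers that carried c-Kit and had the 10% lowest CD71. RNA of 48 such cells was sequenced, and the 46 cells with C1qb, a macrophage complement gene, under 1000 CPM (counts scaled to a common library size) were kept. The labels name no strain, animal, chip or batch, so the cells count as 1 sample of 1 group, and all values below are descriptions without a test. The kept cells had 246007 to 3211186 counts each and reads of 5180 to 7935 genes.

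Kit, a gene of the sort, and the lineage genes Gata1 and Mpo were not read evenly. Kit, which encodes c-Kit, was read in 44 of the 46 cells, 38 of them at 10 CPM or more. Gata1, the transcription factor that drives erythroid differentiation, was read in 42 cells, 28 of them at 10 CPM or more. Mpo, the myeloperoxidase of neutrophil and monocyte precursors, was read in all 46 cells, 40 of them at 10 CPM or more. By these markers the erythroid label was not borne out in every cell. Of the markers of other cells, Alb and Cd3e were read in 1 cell each, and Ttr, Col1a1 and Col3a1 in none. The cell with the highest C1qb among those kept, at 338 CPM, also had Xist and Y-linked reads. Its summed level of the 51 genes was 7533 CPM.

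Entry into mitosis is driven by the kinase Cdk1 with its B-type cyclins. Aurora kinases, kinesins and kinetochore proteins then build the spindle and attach chromosomes to it, and the anaphase-promoting complex, APC/C, marks cyclins for destruction so that cells can exit. Many genes of this programme are transcribed late in the cell cycle through a promoter element named the cell cycle genes homology region (CHR), often with CCAAT boxes bound by NF-Y. Committed erythroid progenitors of the fetal liver are known to divide rapidly while the blood of the embryo expands.

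The promoters were read from RefSeq on the build GRCm38.p6, as the 250 bases before and the 50 bases after each start, and 45 of the 51 genes matched. Tpx2, Smc4, Aurkb, Cdc25c, Dlgap5 and Cdca2 were the others. The letters searched were TTTGAA or TTTAAA for the CHR and CCAAT for NF-Y, on both strands, so that TTCAAA and ATTGG also count. TTTAAA reads the same on both strands. The CHR letters stood in 35 of the 45 promoters (77.8%), against 18.9% of 6469 other measured genes and 27.8% of all 27025 promoters in the table. TTTGAA alone stood in 31 of the 45 (68.9%), against 11.8% and 18.1%. CCAAT letters stood in 34 of the 45 (75.6%), against 39.5% of the other measured genes and 37.9% of all promoters. At least 2 CCAAT matches stood in 27 of the 45 (60.0%), against 16% and 12.2%. Both motifs stood in 28 of the 45 (62.2%), against 7.64% and 10.9%. Nusap1, Nuf2, G2e3 and Tacc3 held neither, which says only that these letters are not in this window. A match of letters is a description and not a bound site.

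The matches were denser close to the start. Between 0 and 24 bases after the start, 14 of the 45 promoters (31.1%) held the CHR letters, against 1.24% of the other measured genes. With the start counted as 0, CCAAT letters were spread over −100 to −1. They stood at −100 to −76 in 10 promoters (22.2%), against 7.67% of the other measured genes, and at −75 to −51 in 17 (37.8%), against 9.83%. At −50 to −26 they stood in 13 (28.9%), against 8.76%, and at −25 to −1 in 17 (37.8%), against 5.35%. A gene can count in several of these windows.

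**Figure D1:**
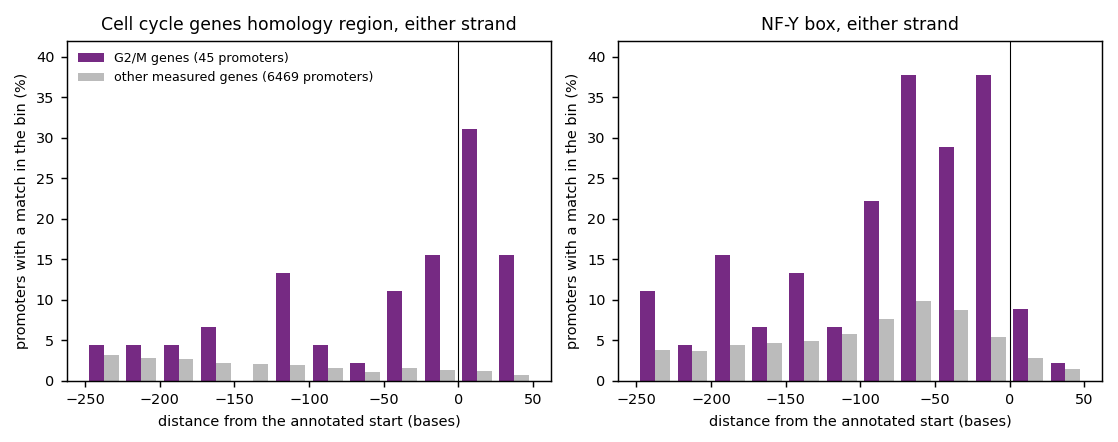
Percent of promoters that hold the CHR letters or the CCAAT letters in each 25-base bin, by distance from the start in bases (0 is the start), for the 45 matched G2/M and mitosis genes and for 6469 other measured genes. The genes of the list peak at 31.1% for the CHR letters just after the start, where the other measured genes have 1.24%.

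The promoters shown are those of the 5 genes that co-varied most with the rest of the list among the promoters holding both motifs, and that of Lbr, the gene that co-varied least. Each is given 5′ to 3′ on the strand of its gene, with the matched letters in capitals. Ube2c, the ubiquitin-conjugating enzyme of the APC/C, is on the plus strand at chr2:164769679-164769978. Kif11, the kinesin that pushes spindle poles apart, is on the plus strand at chr19:37376132-37376431. Hmmr, a spindle-associated hyaluronan receptor, is on the minus strand at chr11:40733388-40733687. Ckap2l, a protein of the spindle and its poles, is on the minus strand at chr2:129297163-129297462. Cenpa, the histone H3 variant of centromeres, is on the plus strand at chr5:30666636-30666935. Lbr, the lamin B receptor of the inner nuclear membrane, is on the minus strand at chr1:181842352-181842651.
Ube2c: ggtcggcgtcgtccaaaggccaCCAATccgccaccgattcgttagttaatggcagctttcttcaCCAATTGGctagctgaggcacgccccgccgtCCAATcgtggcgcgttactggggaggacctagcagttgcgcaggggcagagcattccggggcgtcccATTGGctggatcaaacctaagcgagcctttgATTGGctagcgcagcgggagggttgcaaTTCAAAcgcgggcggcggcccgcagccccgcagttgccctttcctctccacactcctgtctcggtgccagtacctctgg
Kif11: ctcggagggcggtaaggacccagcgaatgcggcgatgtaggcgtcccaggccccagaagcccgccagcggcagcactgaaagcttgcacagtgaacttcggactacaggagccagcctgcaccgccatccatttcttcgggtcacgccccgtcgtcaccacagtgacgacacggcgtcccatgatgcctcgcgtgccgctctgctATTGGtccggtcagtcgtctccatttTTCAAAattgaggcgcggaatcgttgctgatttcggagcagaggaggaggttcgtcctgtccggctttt
Hmmr: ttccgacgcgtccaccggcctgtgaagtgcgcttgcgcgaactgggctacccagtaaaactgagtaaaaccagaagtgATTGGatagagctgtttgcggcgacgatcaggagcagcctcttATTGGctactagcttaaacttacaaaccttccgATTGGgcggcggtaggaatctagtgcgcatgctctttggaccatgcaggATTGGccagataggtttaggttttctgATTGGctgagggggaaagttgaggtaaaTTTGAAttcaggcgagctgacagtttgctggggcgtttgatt
Ckap2l: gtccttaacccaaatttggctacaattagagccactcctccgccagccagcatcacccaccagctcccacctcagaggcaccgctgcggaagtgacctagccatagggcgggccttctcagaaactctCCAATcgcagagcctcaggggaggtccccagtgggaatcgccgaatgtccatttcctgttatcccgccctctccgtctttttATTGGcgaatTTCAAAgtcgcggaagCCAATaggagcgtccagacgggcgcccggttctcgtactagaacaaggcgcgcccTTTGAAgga
Cenpa: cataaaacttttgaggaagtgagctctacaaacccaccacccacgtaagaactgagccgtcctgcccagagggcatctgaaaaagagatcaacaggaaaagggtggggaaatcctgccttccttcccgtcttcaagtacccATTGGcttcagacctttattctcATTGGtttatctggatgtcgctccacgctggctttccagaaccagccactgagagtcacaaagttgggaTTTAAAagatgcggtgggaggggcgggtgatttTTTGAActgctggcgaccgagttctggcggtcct
Lbr: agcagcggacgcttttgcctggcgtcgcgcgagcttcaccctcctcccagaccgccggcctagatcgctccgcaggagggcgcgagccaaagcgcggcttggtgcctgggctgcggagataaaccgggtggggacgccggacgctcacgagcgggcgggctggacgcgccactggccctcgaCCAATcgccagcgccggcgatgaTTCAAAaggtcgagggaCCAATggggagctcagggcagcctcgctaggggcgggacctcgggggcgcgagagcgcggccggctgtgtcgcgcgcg
Ube2c and Hmmr held 6 and 5 CCAAT matches, and Kif11 held 1. Ckap2l and Cenpa each held 2 CHR matches. The promoter of Lbr held both motifs as well. The other 5 were picked among promoters that hold both, so setting them beside Lbr cannot tell whether the letters go with co-variation. The genes with both motifs had a median mean rho with the rest of the list of 0.171 (n = 28), against 0.159 in the matched genes without both (n = 17).

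All 51 genes passed the filter on low values, which asked for a mean of 5 CPM or more and for reads in 10 cells or more, and entered every result below except where thinned counts are given. A read in all 46 cells was found for 19 of them, and 34 were read in at least 40 cells. The median over cells was at least 100 CPM for 18 genes and under 10 CPM for 16. Levels between genes are compared per kilobase of exon. On that scale the highest means were those of Cks2 (327 CPM per kilobase), Lbr (281), Cks1b (201), Cbx5 (188), Hmgb2 (187) and Ccnb2 (162). The lowest were Hjurp (0.828), Nek2 (3.79) and Dlgap5 (5.25), and the median over the 51 genes was 33.4 CPM per kilobase. Cks1b and Cks2 have closely similar sequences, so the split of reads between them is uncertain.

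Cdk1, its cyclin and its binding subunits were read in nearly every cell. Cdk1 (chr10:69335146-69352938, GRCm38), the kinase that starts mitosis, had 0.629, 134 and 1109.9 CPM at the lowest, median and highest cell. Ccnb2, a B-type cyclin that activates it, had 0, 205 and 1042 CPM. The Cdk1-binding subunits Cks1b and Cks2 had a read in all 46 cells, and Cks2 had 6.32, 219.9 and 627 CPM. Cks1b had 0.827, 219 and 578 CPM. Cdc25c, the phosphatase that removes the inhibitory phosphates of Cdk1, was read in 29 cells, with 0, 0.812 and 1849 CPM. It shares 12.7% of its exon bases with a gene on the other strand, and the counting is not stated to use strand.

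Among the mitotic kinases and the chromosomal passenger complex, the 3 passenger genes differed in how often they were read. Birc5 (survivin) had 1.35, 173 and 586 CPM and Cdca8 (borealin) had 0.673, 173 and 681 CPM, both with a read in all 46 cells. Aurkb, the kinase of that complex, had 0, 27.8 and 776 CPM. Aurka, the kinase of the spindle poles, had 0, 5.32 and 802 CPM and was read in 34 cells. The spindle checkpoint kinases Bub1 and Ttk were read in 41 and 27 cells, with medians of 20.0 and 0.488 CPM. Nek2, a centrosome kinase, was read in 11 cells. Most cells were therefore without a read of Nek2, whose highest cell had 721 CPM.

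Kinetochore genes spanned a similar width. The motor Cenpe had 0, 107 and 1273 CPM at the lowest, median and highest cell, and Cenpf, a large outer kinetochore protein, had 0.564, 40.4 and 1373 CPM. Cenpa had 0, 68.4 and 569.9 CPM. Ndc80 and Nuf2, subunits of the microtubule-binding NDC80 complex, were read in 34 and 42 cells, with medians of 3.22 and 18.05 CPM. Hjurp, the chaperone that loads Cenpa, was read in 14 cells and peaked at 81.5 CPM. Of the APC/C genes, Ube2c (chr2:164769898-164778822) had 0, 52.9 and 1223 CPM. Its exons share 22.8% of bases with Tnnc2 on the other strand, and Tnnc2 had no read in any of the 46 cells. Cdc20, the activator that brings substrates to the complex, had 0, 12.8 and 679.8 CPM, and Cdca3, a trigger of mitotic entry, had 0, 43.4 and 613 CPM. G2e3, a ubiquitin ligase named for G2/M, had 0, 0.418 and 1482 CPM.

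Spindle genes form the largest group, with 15 members. Tpx2, which activates Aurka on the spindle, had 0, 168 and 1214 CPM, and Nusap1, which bundles spindle microtubules, had 0, 12.6 and 1015 CPM. Kif11 (chr19:37376403-37421859) had 0, 21.2 and 982 CPM and Hmmr had 1.01, 61.9 and 579 CPM. Kif20b, a kinesin of late mitosis, had 0, 106 and 4059.7 CPM. Medians in this group ran from 0 for Psrc1 and Gtse1 to 168 CPM for Tpx2. Ckap5, a microtubule polymerase, had 0.827, 111 and 969 CPM, and Tacc3, its centrosomal partner, had 0.465, 66.5 and 1436 CPM. Gas2l3, which links microtubules to actin, had 0.419, 12.9 and 299 CPM, and Rangap1, the GTPase activator of Ran, had 4.03, 157 and 941 CPM. These 4 were read in all 46 cells. Dlgap5, a spindle assembly protein, was read in 45 cells, Ckap2l in 35, Ckap2 in 34, Kif2c in 33, Gtse1, a microtubule-binding protein, in 21 and Psrc1 in 19. The medians of these 6 ran from 0 to 12.3 CPM. Tacc3 shares 8.14% of its exon bases with Tmem129 on the other strand.

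Several chromosome and envelope genes were read in every cell. Top2a, the topoisomerase that untangles sister chromatids, had 0.692, 443 and 2032 CPM, and Mki67, the Ki-67 protein that coats mitotic chromosomes, had 0.564, 355 and 3876 CPM. Hmgb2, a chromatin protein that bends DNA, had 21.3, 518 and 1648 CPM and the lowest coefficient of variation of the list (0.585). Cbx5, the heterochromatin protein HP1 alpha, had 15.5, 1475 and 5587 CPM. Smc4, the condensin ATPase, had 9.08, 342 and 2218 CPM, and Ncapd2, another condensin subunit, had 0, 70.6 and 1513 CPM. Ncapd2 was read in 45 of the 46 cells, and Smc4 in all 46. Ctcf, the insulator protein, had 0, 74.5 and 2188 CPM, and Anp32e, a histone H2A.Z chaperone, had 0.528, 45.1 and 1753 CPM. Cdca2, which targets a phosphatase to chromatin, was read in 31 cells, with a median of 7.79 CPM. Lbr (chr1:181815335-181843046) had 148, 1071 and 8602 CPM, the only lowest value above 100 CPM, and Tmpo, a lamina-associated protein, had 7.21, 510.4 and 2429 CPM. Lbr shares 10.7% of its exon bases with other annotated genes. The 3 cytokinesis genes were read in fewer cells: Anln (anillin) in 34, Ect2, an activator of RhoA, in 33 and Kif23, the kinesin of the midzone, in 30.

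**Figure D2:**
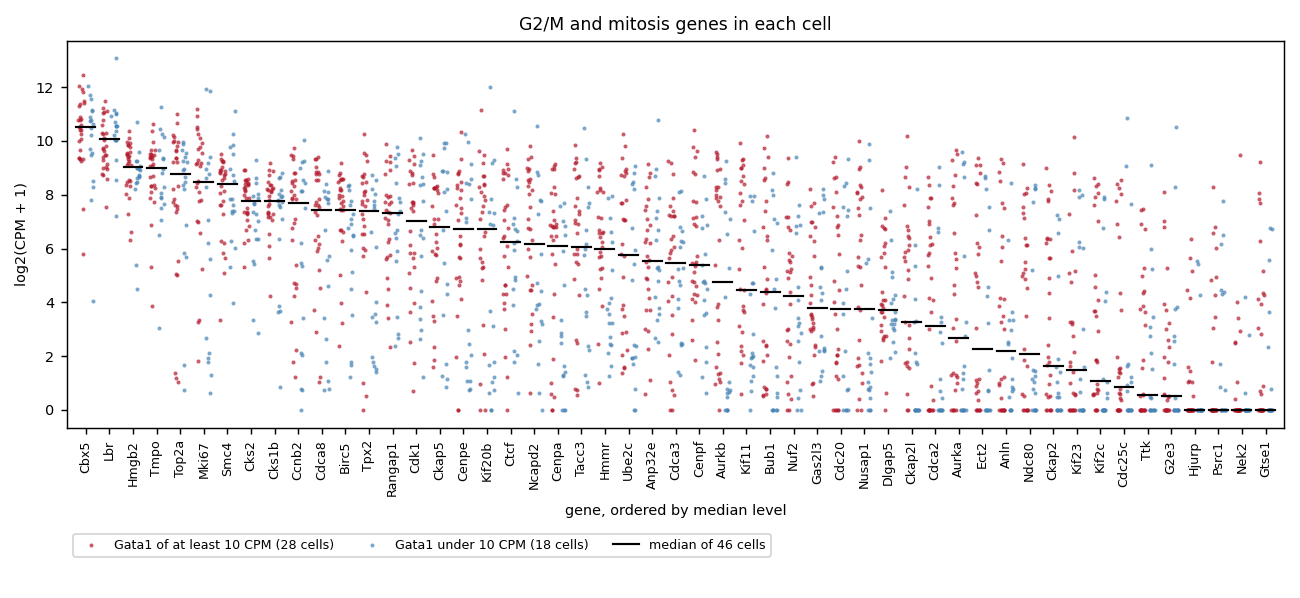
Level of each of the 51 G2/M and mitosis genes in each of the 46 kept cells, on the log2(CPM + 1) scale, 1 point a cell, with Gata1 cells (at least 10 CPM of Gata1) to the left of the other cells and a bar at the median of all 46. Genes run by falling median. Cbx5 and Lbr are high in nearly every cell, and Nek2 and Hjurp are read in 11 and 14 cells.

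The genes of the list co-varied weakly but widely across cells. Over the 1275 pairs, Spearman's rho averaged 0.160 (46 cells), against 0.0145 over all pairs of the 8482 genes that passed the filter. A rho of at least 0.4 was found in 107 pairs (8.39%), against 0.582% of all pairs, and a rho of −0.4 or less in 0 pairs, against 0.303%. A rho under 0 was found in 228 pairs (17.9%), against 46.3%. All points share 1 sort, and cells with more genes detected tended to have higher levels of these genes. The median rho of the 51 genes with the number of genes detected was 0.242, against 0.121 over all filtered genes. With that number held constant by a partial rank correlation, the mean over pairs was 0.118, against 0.000781 over all genes. The first principal component of the 51 genes held 22.4% of their variance and the second 6.57%.

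The strongest co-variation lay among spindle, centromere and APC/C genes. Nusap1 and Kif11 had the highest rho of any pair (0.671), then Ube2c and Nusap1 (0.654), Cenpa and Ube2c (0.592), Bub1 and Cenpa (0.590) and Kif11 and Ckap2l (0.583). Averaged over the 50 other genes of the list, rho was highest for Ube2c (0.338), Nusap1 (0.319), Birc5 (0.269), Kif11 (0.264), Tpx2 (0.261) and Hmmr (0.261). Among the kinetochore genes it was highest for Cenpa (0.247) and lowest for Hjurp (0.132), and among the Cdk1 genes it was highest for Cks2 (0.199) and lowest for Cdc25c (0.0900). Top2a led the chromosome genes (0.214).

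At the other end stood the envelope genes, the condensin genes and anillin. The lowest averages belonged to Lbr (−0.109), Ncapd2 (0.0111), Tmpo (0.0113), Anln (0.0359) and Smc4 (0.0516). Lbr was also in the pairs with the lowest rho, with Cenpa (−0.374) and Gtse1 (−0.347), and it was the only gene of the list whose average was under 0. By role, the mean rho within a group was highest for the 4 APC/C genes (0.378) and the 15 spindle genes (0.229). It was lowest for the 2 envelope genes (0.00722) and the 3 cytokinesis genes (−0.00718). The 4 APC/C genes had a rho of 0.428 to 0.525 with the number of genes detected, against a median of 0.242 over the list. The means by role were not taken with that number held constant.

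**Figure D3:**
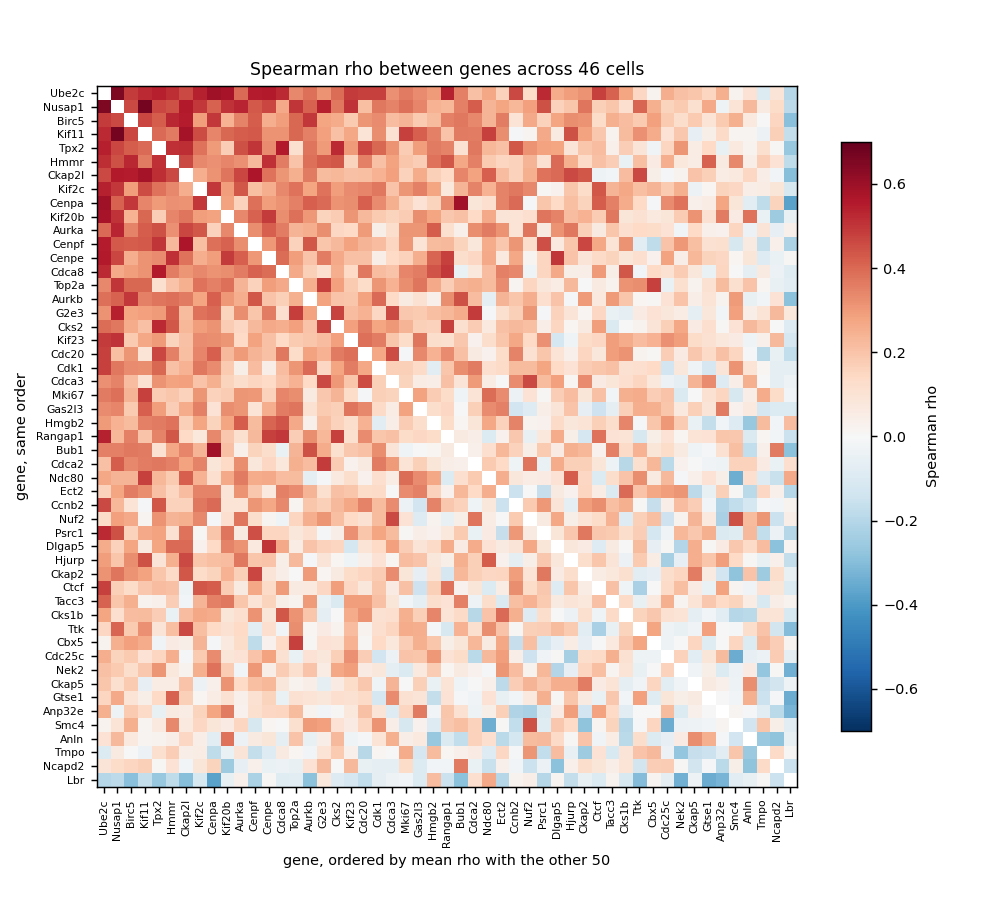
Spearman's rho across 46 cells for every pair of the 51 G2/M and mitosis genes, in order of their mean rho with the other 50, on a colour scale centred at 0. The corner of Ube2c, Nusap1, Birc5 and Kif11 holds the highest values, up to 0.671 for Nusap1 with Kif11, and the last row, Lbr, is mostly under 0.

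The lineage genes Gata1 and Mpo were opposed across cells, with a rho of −0.606 (46 cells). Along Gata1 the list leaned upward: 44 of the 51 genes had a rho above 0, against 53.2% of the other filtered genes, and their median was 0.142, against 0.0152. Single genes were weakly related to it. A rho of at least 0.4 was found for 1 of the 51, Hmmr (0.417), against a background of 1.78% of all filtered genes, and a rho of −0.4 or less for 0, against 2.16%. At a limit of 0.3, 5 genes passed (background 5.73%): Hmmr, Kif11 (0.354), Mki67 (0.354), Kif20b (0.314) and Ckap2l (0.303). The count at 0.4 is near its background, and it was 0 with size factors, after thinning or with all 48 cells. Cdk1 (−0.0367) and Top2a (0.0467) were close to 0, and the lowest was Psrc1, a spindle microtubule protein (−0.161).

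Along Mpo the list leaned downward. A rho under 0 was found for 44 of the 51 genes and above 0 for 7, where 50.5% of the other filtered genes were above 0. The median of the 51 was −0.153, against 0.00260 for the other filtered genes. A rho of −0.4 or less was found for 2 of the 51, Kif11 (−0.519) and Kif20b (−0.451), against a background of 1.54%, and a rho of at least 0.4 for 0, against 3.61%. With the number of genes detected held constant, 10 genes were at −0.4 or less, against a background of 2.03% under the same correlation. At −0.3 or less there were 12 genes, against a background of 5.21%. Lbr had the highest rho with Mpo (0.237). With the number of genes detected held constant, the medians over the list were 0.138 for Gata1 and −0.169 for Mpo.

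For a view in levels, the cells were cut at 10 CPM of Gata1, giving 28 Gata1 cells and 18 other cells. These are ranges of a transcript level and not labelled groups. The nearest cells had 16.3 CPM above the cut and 9.31 CPM below it, and 3 cells lay between 5 and 20 CPM. Differences are of mean log2(CPM + 1), Gata1 cells minus the other cells. Of the 51 genes, 24 (47.1%) were higher by at least 1, against a background of 14.4% of the filtered genes, and 0 were lower by at least 1, against 13.2%. The difference was positive for 46 genes and negative for 5, where 54.3% of the other filtered genes had a positive difference. The median of the 51 was 0.88, against 0.09 over the other filtered genes. With a pseudocount of 10 the count of higher genes was 13, against a background of 4.11%, and with the cut at 100 CPM of Gata1 it was 14, against 9.93%. For every gene of the list, the levels on the 2 sides of the cut overlapped.

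Spindle genes made up 10 of those 24. At the lowest, median and highest cell, Ckap2l had 0, 40.9 and 1152 CPM in Gata1 cells, against 0, 1.14 and 294 CPM in the other cells (difference 2.73). Kif11 had 0.493, 71.7 and 982 CPM in Gata1 cells, against 0, 3.16 and 248 CPM in the other cells (difference 2.47). Hmmr had 1.01, 95.1 and 579 CPM in Gata1 cells, against 1.42, 11.8 and 246 CPM in the other cells (difference 2.28). The median was higher in the Gata1 cells for each of the 3, while the lowest to highest levels on the 2 sides overlapped. Nusap1 differed by 2.22, Kif20b by 1.93, Tpx2 by 1.85, Ckap2, a microtubule stabiliser, by 1.78, Kif2c, a microtubule-depolymerising kinesin, by 1.44, Tacc3 by 1.16 and Gtse1 by 1.03. The sign turned for Kif2c with the cut at 100 CPM of Gata1 (−0.48) and for Gtse1 with the cut at 1 CPM (−0.12). Ckap2l reached 10 CPM in 17 of the 28 Gata1 cells (40.6 to 78.5%), against 4 of the 18 other cells (6.41 to 47.6%), with exact binomial intervals at 95%. After every cell was thinned to 246007 counts, these were 18 Gata1 cells and 6 other cells. Without thinning, Kif11 reached 10 CPM in 21 of the 28 Gata1 cells (55.1 to 89.3%), against 7 of the 18 other cells (17.3 to 64.3%). These intervals treat cells of 1 sample as independent draws and are given for genes with large differences. They describe these cells and are not a test.

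The kinases and the kinetochore gave 5 of 7 and 4 of 6 genes higher by at least 1. The kinase group was Aurka, Aurkb, Birc5, Cdca8 and Bub1, and the kinetochore group Cenpa, Cenpe, Cenpf and Ndc80. Aurkb had 0, 134 and 776 CPM in Gata1 cells, against 0, 0.896 and 605 CPM in the other cells (difference 2.12). Birc5 had 4.22, 225 and 586 CPM in Gata1 cells, against 1.35, 99.4 and 327 CPM in the other cells (difference 1.45). Cenpa had 0, 109.7 and 569.9 CPM in Gata1 cells, against 0, 5.95 and 204 CPM in the other cells (difference 2.14). Of the APC/C genes, 1 of 4 passed, Ube2c, with a difference of 1.55. Of the chromosome genes, 3 of 9 passed: Mki67 (2.12), Ncapd2 (1.59) and Cdca2 (1.46). Of the cytokinesis genes, Anln passed (1.26). With the cut at 100 CPM of Gata1, the sign turned for Cdca2 (−0.012) and Aurka (−0.20).

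The Cdk1 genes and the envelope genes did not reach that size. Cdk1 had 0.629, 173 and 801 CPM in Gata1 cells, against 1.35, 96.2 and 1109.9 CPM in the other cells (difference 0.18). Top2a had 1.04, 457 and 2032 CPM in Gata1 cells, against 0.692, 443 and 987 CPM in the other cells (difference 0.10). The levels of Cdk1 and Top2a overlapped between the 2 sides, and the single highest cell of Cdk1 lay below the Gata1 cut. The other Cdk1 genes differed by 0.92 for Ccnb2, 0.88 for Cks2, 0.86 for Cks1b and 0.72 for Cdc25c. Lbr was lower in the Gata1 cells, with a difference of −0.49, and the other negative differences were Anp32e (−0.27), Psrc1 (−0.27), Gas2l3 (−0.07) and Smc4 (−0.06).

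Cut at 1000 CPM of Mpo, the cells gave 18 high-Mpo cells and 28 lower-Mpo cells, with 1129 CPM nearest above the cut, 935 CPM nearest below it and 5 cells between 500 and 2000 CPM. The 2 cuts mostly divide the same cells: 16 of the 18 high-Mpo cells were below the Gata1 cut, and 26 of the 28 lower-Mpo cells were above it. Their results are therefore not independent of each other. Of the 51 genes, 24 (47.1%) were lower by at least 1 in the high-Mpo cells, against a background of 14.7%, and 0 were higher, against 14%. The median difference was −0.95, against −0.08 over the other filtered genes. With the cut at 5000 CPM of Mpo, 15 genes were lower, against a background of 13.6% at that cut, and 1 was higher, against 17.4%. All ranges overlapped here too.

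The largest difference belonged to Kif20b. At the lowest, median and highest cell, Kif20b had 0, 2.87 and 585 CPM in high-Mpo cells, against 0, 207 and 4059.7 CPM in the lower-Mpo cells (difference −3.68). Nusap1 had 0, 1.35 and 945 CPM in high-Mpo cells, against 0, 59.0 and 1015 CPM in the lower-Mpo cells (difference −2.70). Cenpe had 0, 5.68 and 1005 CPM in high-Mpo cells, against 0, 171 and 1273 CPM in the lower-Mpo cells (difference −2.36). Kif20b reached 10 CPM in 7 of the 18 high-Mpo cells (17.3 to 64.3%), against 25 of the 28 lower-Mpo cells (71.8 to 97.7%). Here too the intervals treat cells of 1 sample as independent draws and are not a test. By role, 11 of 15 spindle genes, 5 of 7 kinase genes, 3 of 6 kinetochore genes, 2 of 9 chromosome genes and 1 each of the APC/C, cytokinesis and Cdk1 genes were lower by at least 1. The Cdk1 gene was Cks2 (−1.06), and the chromosome genes were Mki67 (−2.07) and Ctcf (−1.23). Cdk1 (−0.12), Ccnb2 (−0.18), Top2a (−0.23) and Kif23 (−0.02) differed by under 0.3 in size. The 2 positive differences were Lbr (0.38) and Ttk (0.07), where 46.8% of the other filtered genes had a positive difference.

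**Figure D4:**
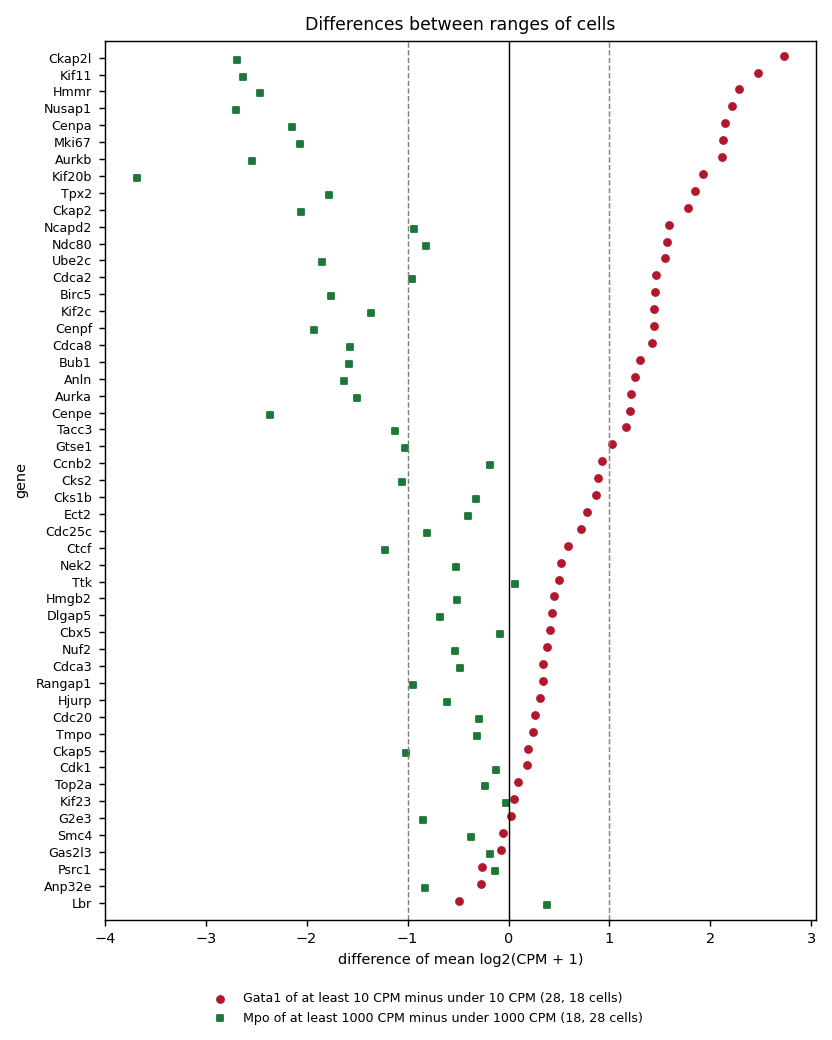
Difference of mean log2(CPM + 1) of each of the 51 G2/M and mitosis genes, Gata1 cells minus other cells and high-Mpo cells minus lower-Mpo cells, with lines at −1 and 1. Ckap2l, Kif11 and Hmmr are farthest right for Gata1, Kif20b is farthest left for Mpo, and Cdk1 and Top2a are near 0 in both.

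Total counts had a higher median on the side where the listed genes were higher. They were 246007, 2074378 and 3211186 at the lowest, median and highest Gata1 cell, against 507732, 1659078 and 3061777 in the other cells. Total counts were 976480, 1712834 and 3061777 in the high-Mpo cells, against 246007, 2006075 and 3211186 in the lower-Mpo cells. After every cell was thinned to 246007 counts, 50 of the 51 genes passed the filter. Of these, 23 were higher by at least 1 in the Gata1 cells, against a background of 15.9%, and 20 were lower by at least 1 in the high-Mpo cells, against 15%. The genes detected numbered 5180, 6866 and 7886 at the lowest, median and highest Gata1 cell, against 5808, 6662 and 7935 in the other cells. Markers of other cells moved with the cuts. The summed CPM of 15 erythroid markers, Gata1 included, was 145, 3120.2 and 8189 in the Gata1 cells, against 4.97, 392 and 3047 in the other cells. That of 12 neutrophil and monocyte markers, Mpo included, was 5.95, 102 and 8344 in the Gata1 cells, against 23.2, 7370.4 and 75548 in the others. That of 8 stem and early progenitor markers was 8.72, 468 and 2922, against 2.82, 1007 and 2573. Across the Mpo cut, the erythroid markers summed to 4.97, 336 and 2451 CPM in the high-Mpo cells, against 599, 3145 and 8189 CPM in the lower-Mpo cells. The 5 mast cell and basophil markers summed to 0, 23.4 and 2247 CPM in the high-Mpo cells. In the lower-Mpo cells they summed to 0, 0.660 and 1043 CPM. Of these markers, Fcer1a and Prss34 were at 0 in all 46 cells, and Mcpt8 and Ms4a2 were read in 2 cells each. Cpa3 was read in 31 cells, up to 2247 CPM, so in most cells the sum is that of Cpa3 alone. All 15 erythroid and all 12 neutrophil and monocyte markers were read in at least 7 cells, so both kinds of transcript were present in the sort. The part of these markers in the differences of the 51 genes was not tested.

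Cell by cell, high and low levels of the list occurred on both sides of each cut. The number of the 51 genes at 100 CPM or more was 13, 23 and 34 at the lowest, median and highest Gata1 cell, against 7, 16.5 and 38 in the other cells. It was 7, 15 and 38 in the high-Mpo cells, against 13, 23 and 34 in the lower-Mpo cells. The cell with the most, 38, was a high-Mpo cell with 5709 CPM of Mpo, 0.449 CPM of Gata1 and a read of all 51 genes. It also had the most genes detected of the 46 cells (7935). The cell with the fewest, 7, was a high-Mpo cell as well, with 2166 CPM of Mpo and 6659 genes detected.

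The summed level of the 51 genes was 4119.9, 10496 and 30662 CPM at the lowest, median and highest of the 46 cells. The highest sum came from a few genes of 1 cell with 507732 counts, which had 8602 CPM of Lbr, 4059.7 of Kif20b and 3692 of Mki67, with 2.29 CPM of Gata1 and 290.3 CPM of Mpo. A score that weighs the genes equally, the mean over the list of each gene's standardised log2 level, had a rho of 0.283 with Gata1, −0.383 with Mpo and 0.569 with the number of genes detected (46 cells each).

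**Figure D5:**
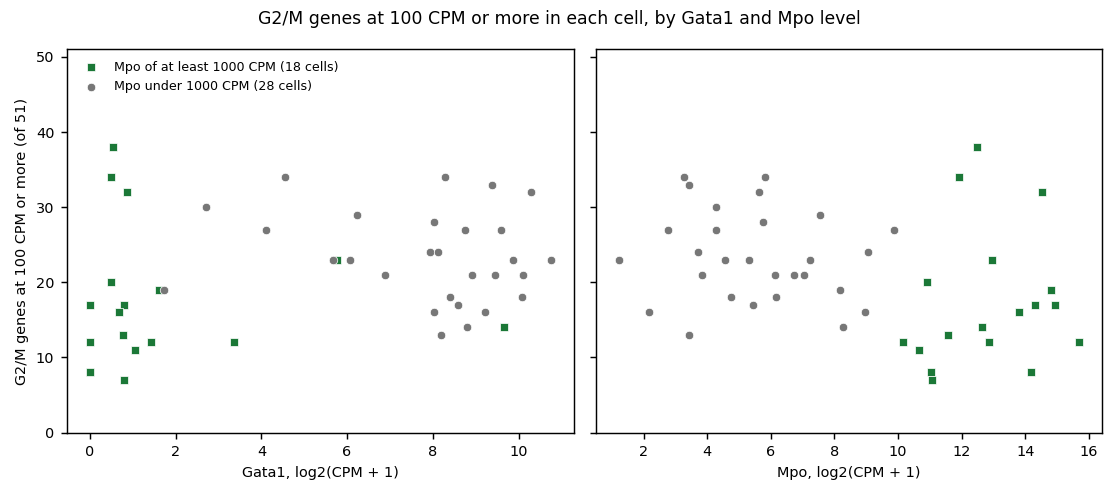
Number of the 51 G2/M and mitosis genes at 100 CPM or more in each of the 46 cells, against the cell's log2(CPM + 1) of Gata1 and of Mpo, with high-Mpo cells as squares and lower-Mpo cells as circles. Both the highest number, 38, and the lowest, 7, belong to high-Mpo cells.

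Within the ranges, the medians along the lineage genes were closer to 0 than across all 46 cells. Inside the 28 Gata1 cells, the median rho of the 51 genes with Gata1 was −0.0788 (range −0.360 to 0.286), and 16 were above 0. The median of the other genes was −0.00274, with 49.5% above 0. Inside the 18 high-Mpo cells, their median rho with Mpo was 0.0492, with 31 above 0, against 0.0177 and 53.0% for the other genes. Inside the 28 lower-Mpo cells it was −0.0531, with 24 above 0, against 0.0448 and 58.9% for the other genes. The co-variation of the 51 genes among themselves was highest inside the high-Mpo cells. Their mean pairwise rho was 0.207 there (all filtered genes 0.0192), against 0.0707 in the lower-Mpo cells (all filtered genes 0.0122). Inside the Gata1 cells it was 0.0798. Whether these values differ between ranges was not tested.

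The genes outside the list that followed its score most closely were mostly mitotic. A rho of at least 0.4 with the score was found for 2.0% of the 8431 other filtered genes and of −0.4 or less for 0.546%. The highest were Kpna2, an importin (0.810), Ccnb1, the main mitotic cyclin (0.757), Casc5, a kinetochore scaffold (0.654), Plk1, the polo-like kinase (0.619), Tuba1c, an alpha tubulin (0.609), and the kinetochore genes Spc25 (0.606) and Ska1 (0.596), over 46 cells. Ccnb1 had 0.564, 269 and 3209 CPM at the lowest, median and highest cell. Piga, Ncapg, Tomm70a, Cdkn2d, Kif22, Fam64a and Prc1 were also among the 15 highest, at 0.545 to 0.581. Of the 15, 9 were on a list of 60 other mitotic genes. Of the 54 genes of that list that passed the filter, 21 had a rho of at least 0.4 with the score and 0 had −0.4 or less, with a median of 0.349, against 0.0665 over all other genes. In the Gata1 cells, 25 of the 54 were higher by at least 1 and 1 was lower, beside the backgrounds of 14.4% and 13.2%.

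Genes of DNA replication had a median below 0 against the same score. Of 40 S phase genes, 1 had a rho of at least 0.4 with the score, Rrm1, a subunit of ribonucleotide reductase (0.459), and 4 had −0.4 or less. Those 4 were Ung, a uracil glycosylase (−0.560), the helicase subunits Mcm4 (−0.508) and Mcm6 (−0.446), and Uhrf1, which binds newly replicated DNA (−0.407). The median over the 40 was −0.156. In the Gata1 cells 4 of the 40 were higher and 6 lower by at least 1, beside the backgrounds of 14.4% and 13.2%. Over all other genes, the 10 lowest values ran from −0.560 for Ndufa4, a subunit of the respiratory chain, to −0.472 for Ppia, cyclophilin A. Besides Ung and Mcm4 they included B4galt6, Mcmbp, which binds the Mcm helicase, Pcyox1, Ninj1 and Rps19, a ribosomal protein.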

How the data were processed

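RNA of 48 single cells of 1 group was measured, with cDNA made on a microfluidic chip whose chambers were inspected under a microscope, per the labels. The submitters' processing notes name TopHat2 2.0.12, the Subread tool featureCounts 1.4.6 and the build mm10, and the authors deposited whole-number counts for 24062 genes. The deposited log2 table was checked against the counts: it equals log2 of the count over a median-of-ratios size factor, plus 1, within 1e-06, and is not used further. Whether counting used strand is not given in the sources used here. The columns carry run codes and no title of a sample, so the cells form 1 sample and no test was made. No doublet caller was run, and a kept cell that had both Xist and Y-linked reads was left out as an alternative.

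From the counts, CPM used TMM library sizes (factors 0.419 to 1.70 over the 48 cells), and 1 was added before taking log2. Genes needed a read in 10 cells and a mean of 5 CPM. Rank correlations ran over 46 cells, with 0.4 as limit for a call and 1 as limit for a log2 difference. Thinning took each cell to 246007 counts without replacement. Intervals are exact binomial (Clopper-Pearson) at 95% over cells. They cover the sampling of cells only, not the counting of reads within a cell, and treat cells of 1 sample as independent draws. The reads carry no molecular identifiers. The members, roles and lists were chosen with earlier results of these data known. Named are all members by role, those of highest and lowest mean rho in a role or past a limit, the other mitotic and S phase lists, and the 15 genes most and 10 least like the score, apart from some genes that are not reported here. Analyses used Python 3.11.15, numpy 2.4.6, pandas 2.3.3, scipy 1.17.1, matplotlib 3.10.9, R 4.3.3, edgeR 4.0.16 for TMM and DESeq2 1.42.0 for size factors, and the steps were tested on simulated data. Positions are from GENCODE on GRCm38, and promoters from RefSeq on GRCm38.p6, taking the first entry for the 5 genes with several.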

Additional observations from a re-analysis of the deposited data

Results flagged for a closer look

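Both cells left out for their C1qb, at 9739.7 and 8038 CPM, also held the mitotic transcripts, although they enter none of the comparisons. Their summed levels of the 51 genes were 16149 and 11771 CPM, above the median of the kept cells (10496). By the number of listed genes at 10 CPM or more they lay below the kept cells, with 28 and 30, against a median of 32.5. The median number of listed genes with a read in the kept cells was 44. The first had reads of 42 of the 51 genes, with 1081 CPM of Ube2c, 985 of Birc5 and 374 of Ccnb2, but 2.93 CPM of Mki67. The second had reads of 41, with 1035 CPM of Birc5 and 1061 of Mki67, but 0.692 CPM of Top2a. Gata1 stood at 7.33 and 2.08 CPM in these cells. They are set out here because the listed genes were read in cells that the comparisons do not use.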

How the results depend on the processing

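Correlations over 46 cells of 1 sort describe these cells, and genes read in few cells rest on few values. The mean pairwise rho stayed between 0.118 and 0.185 over all alternatives run, the median log2 difference between 0.44 and 0.96 for Gata1 cells, and between −0.95 and −0.50 for high-Mpo cells. The number of members at a rho of at least 0.4 with Gata1 was 0 with size factors, 0 after thinning, 0 with all 48 cells, 2 without the 5 cells of lowest total count, and 5 at a limit of 0.3. The number at −0.4 or less with Mpo was 10 with genes detected held constant, 4 by Pearson's r on log2(CPM + 1), and 12 at a limit of −0.3. In Gata1 cells, members higher by at least 1 numbered 14 with the cut at 100 CPM and 13 with a pseudocount of 10, and 1 was lower with the cut at 1 CPM. With Mpo cut at 5000 CPM, 15 were lower and 1 was higher. The CHR share was 62.2% from 100 bases before to 50 after the start, against 7.05% of the other measured genes and 12.9% of all promoters in that window. Signs turned for Gtse1 (−0.12 with Gata1 cut at 1 CPM), for Aurka (−0.20), Kif2c (−0.48) and Cdca2 (−0.012) with it cut at 100 CPM, for Gtse1 (0.88 with Mpo cut at 100 CPM), and for Tpx2 (0.34), Tacc3 (0.044) and Ckap5 (0.81) with it cut at 5000 CPM. The cause was not tested. Leaving out the cell of highest C1qb, or that of highest summed level, was chosen after seeing the data, and moved none of the counts by over 1.5 times. No paired analysis was possible because the cells form 1 group and the columns carry no replicate numbers.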
